A study of Drosophila melanogaster with 2 samples.

Results

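The nuclear-encoded respiratory chain genes were taken as the protein-coding genes on the 6 main chromosome arms whose symbol begins with ND-, COX and a digit, UQCR-, Sdh or ATPsyn. The annotation was Ensembl release 115 of BDGP6.54, whose arms are those of the dm6 build of the fly genome. This gave 88 of 13945 genes. Of these 40 belong by symbol to complex I, 8 to complex II, 9 to complex III, 16 to complex IV and 15 to complex V. In 24 of them the symbol ends in L, alone or with a digit, as in COX7AL2, which marks a like-named paralog, and 64 are the other members. Of the 8 complex II genes, 1 is Sdhaf3, an assembly factor and not a subunit. Subunits with names of another form, such as Cyt-c1, levy or blw, are outside the set and are given later from a separate list. An IDR (irreproducible discovery rate) summit lay within 1000 bp of a transcription start site (TSS) in 8 members, 9.09% of them (95% Clopper-Pearson interval 4.01 to 17.1%). Over all 13945 genes the share was 7.91%, so the set stood near the background. No summit of any list lay near 58 members. Within the set the strongest summit belonged to COX7AL2, at rank 92 of 2567, and the next to ND-SGDH, ATPsynbeta, ATPsynD and UQCR-14.

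Chromatin immunoprecipitation and sequencing (ChIP-seq) had been done with an antibody against GFP on whole wandering Drosophila melanogaster larvae of the third instar, with both sexes pooled and the age not known. The animals were of 1 transgenic line, tai-GFP, that stably expresses tai with an eGFP tag at the C terminus. There were 2 biological replicates of this 1 group, numbered 1 and 3, called against the same control, and no other genotype, stage or tissue was compared. The tagged gene, tai or taiman, codes for a bHLH-PAS protein that binds the ecdysone receptor and raises its activity. A summit here marks DNA recovered with the tagged protein somewhere in the body, and the cells it came from cannot be told. The files hold no expression values, so tissue markers could not be checked, and an untagged line was not analysed here.

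The respiratory chain of the inner mitochondrial membrane passes electrons from NADH (complex I) or succinate (complex II) through complex III and cytochrome c to oxygen at complex IV, and ATP synthase (complex V) uses the resulting proton gradient to make ATP. Most subunits are encoded in the nucleus, translated in the cytosol and imported, and a small core is encoded by the mitochondrial genome, so the 2 genomes must both be transcribed to build complexes I, III, IV and V. In flies several subunits have paralogs that are known to be expressed mainly in the testis. In larvae, ecdysone ends the growth phase and starts metamorphosis.

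The DNA under 8 summits is shown because the results below turn on these loci. In the first 5 the summit was in the IDR list and in the last 3 only in the list of replicate 1. Each run is 201 bases of the RefSeq copy of the release 6 genome (dm6), centred on the summit and written on the gene's own strand. Capitals mark exact matches, on either strand, to the DREF element DRE (TATCGATA), the core promoter element Motif 1 (GGTCACACT), a TATA box (TATAAA) or GAGAG, the core of the GAGA element. The intervals are chr2L:2197094-2197294 for COX7AL2, minus strand, in its intron, chr3L:12138635-12138835 for ND-SGDH, minus strand, between genes, chr4:1031779-1031979 for ATPsynbeta, plus strand, chrX:16286164-16286364 for UQCR-14, plus strand, and chr3L:20492069-20492269 for ND-39, plus strand. For the other 3 they are chrX:17632058-17632258 for ND-24, plus strand, chr3L:21539478-21539678 for COX8, minus strand, and chr3L:17425335-17425535 for COX7B, plus strand.
COX7AL2: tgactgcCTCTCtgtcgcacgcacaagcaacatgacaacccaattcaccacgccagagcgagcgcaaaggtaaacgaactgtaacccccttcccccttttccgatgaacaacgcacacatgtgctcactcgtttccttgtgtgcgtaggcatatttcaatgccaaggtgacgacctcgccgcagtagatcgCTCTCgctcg
ND-SGDH: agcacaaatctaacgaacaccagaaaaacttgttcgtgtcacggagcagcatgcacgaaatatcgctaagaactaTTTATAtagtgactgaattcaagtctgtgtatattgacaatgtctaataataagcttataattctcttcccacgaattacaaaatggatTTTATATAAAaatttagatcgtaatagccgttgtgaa
ATPsynbeta: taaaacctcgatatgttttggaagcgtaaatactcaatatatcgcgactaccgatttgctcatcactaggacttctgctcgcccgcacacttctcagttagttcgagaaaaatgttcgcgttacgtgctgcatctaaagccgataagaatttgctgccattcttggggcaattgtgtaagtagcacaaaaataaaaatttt
UQCR-14: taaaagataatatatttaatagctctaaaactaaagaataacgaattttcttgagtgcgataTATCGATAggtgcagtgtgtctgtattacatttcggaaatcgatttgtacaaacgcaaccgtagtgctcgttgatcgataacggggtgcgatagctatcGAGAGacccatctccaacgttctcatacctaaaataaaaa
ND-39: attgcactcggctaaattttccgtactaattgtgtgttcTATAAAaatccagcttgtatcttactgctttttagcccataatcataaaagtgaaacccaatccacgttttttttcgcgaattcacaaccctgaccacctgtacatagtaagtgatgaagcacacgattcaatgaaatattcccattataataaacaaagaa
ND-24: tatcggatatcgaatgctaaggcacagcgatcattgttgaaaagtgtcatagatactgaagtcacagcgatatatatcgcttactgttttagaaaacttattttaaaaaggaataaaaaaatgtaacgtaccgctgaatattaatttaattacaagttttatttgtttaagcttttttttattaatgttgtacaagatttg
COX8: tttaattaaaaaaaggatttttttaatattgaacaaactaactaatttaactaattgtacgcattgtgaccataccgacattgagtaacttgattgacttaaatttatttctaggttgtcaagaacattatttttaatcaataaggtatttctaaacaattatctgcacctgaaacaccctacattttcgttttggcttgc
COX7B: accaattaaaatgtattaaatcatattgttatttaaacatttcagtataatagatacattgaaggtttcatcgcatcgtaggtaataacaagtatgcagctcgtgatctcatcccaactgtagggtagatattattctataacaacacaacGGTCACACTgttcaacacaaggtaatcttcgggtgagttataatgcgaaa
The COX7AL2 summit had 54.2% G and C, the highest of the 8, and 2 GAGAG matches. UQCR-14 had 1 DRE and 1 GAGAG match, ND-SGDH 3 TATA matches of which 2 overlap, ND-39 1 TATA match and COX7B 1 Motif 1 match. No searched motif matched under the ATPsynbeta, ND-24 and COX8 summits. A match is a description of letters and not of a bound site, and its absence says nothing of the factor.

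A summit was counted for a gene at up to 1000 bp from its closest TSS. The IDR list held 2567 peaks on the arms. The pooled list and those of the replicates held 29973 to 29976 arm regions, which by their own description are peaks together with background regions, so a summit in them is not a call. The signal quoted is the authors' own value for a region, in units that no label or record names, and rank 1 is the strongest arm region of a list. Read depth is unknown. To set the replicates beside the IDR list, the strongest 2567 arm regions of each were taken and are called its top regions. Replicate 1 had a top region summit near 11 members (12.5%, interval 6.41 to 21.3%) against 9.39% of all genes. Replicate 3 had one near 8 members (9.09%) against 7.87%. By gene, 13 members had one in either replicate and 6 in both, though not always at the same site, as at ND-SGDH. These counts by gene were not made over all genes, so nothing about the set is read from them.

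Over the whole lists the set was likewise close to all genes. The pooled list had a summit near 23 members (26.1%, interval 17.3 to 36.6%) against 28.2% of all genes. The replicate 1 list had one near 25 (28.4%, interval 19.3 to 39%) against 31.3%, and the replicate 3 list near 21 (23.9%, interval 15.4 to 34.1%) against 29.8%. The 58 members with no summit in any list were 65.9% of the set (interval 55 to 75.7%) against 60.8% of all genes. All 4 of these intervals hold the value for all genes. Where members did have a summit, the median rank of their strongest was 5678 in the pooled list, 2901 in replicate 1 and 4168 in replicate 3. The medians over all genes with a summit were 7179, 6679 and 8052. Of the 16 members with a summit in both replicates, 9 had the better rank in replicate 1. Over all genes it was 1490 of 3167. Across these 16 genes, which share 1 control, Spearman's rank correlation of the signal between replicates was 0.78, and across the 3167 such genes in all it was 0.66. Each replicate's signal and rank here are those of its own strongest summit near the gene. At some genes, such as ND-SGDH, the replicates had that summit at different sites, so the correlation is by gene and not by site.

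**Figure D1:**
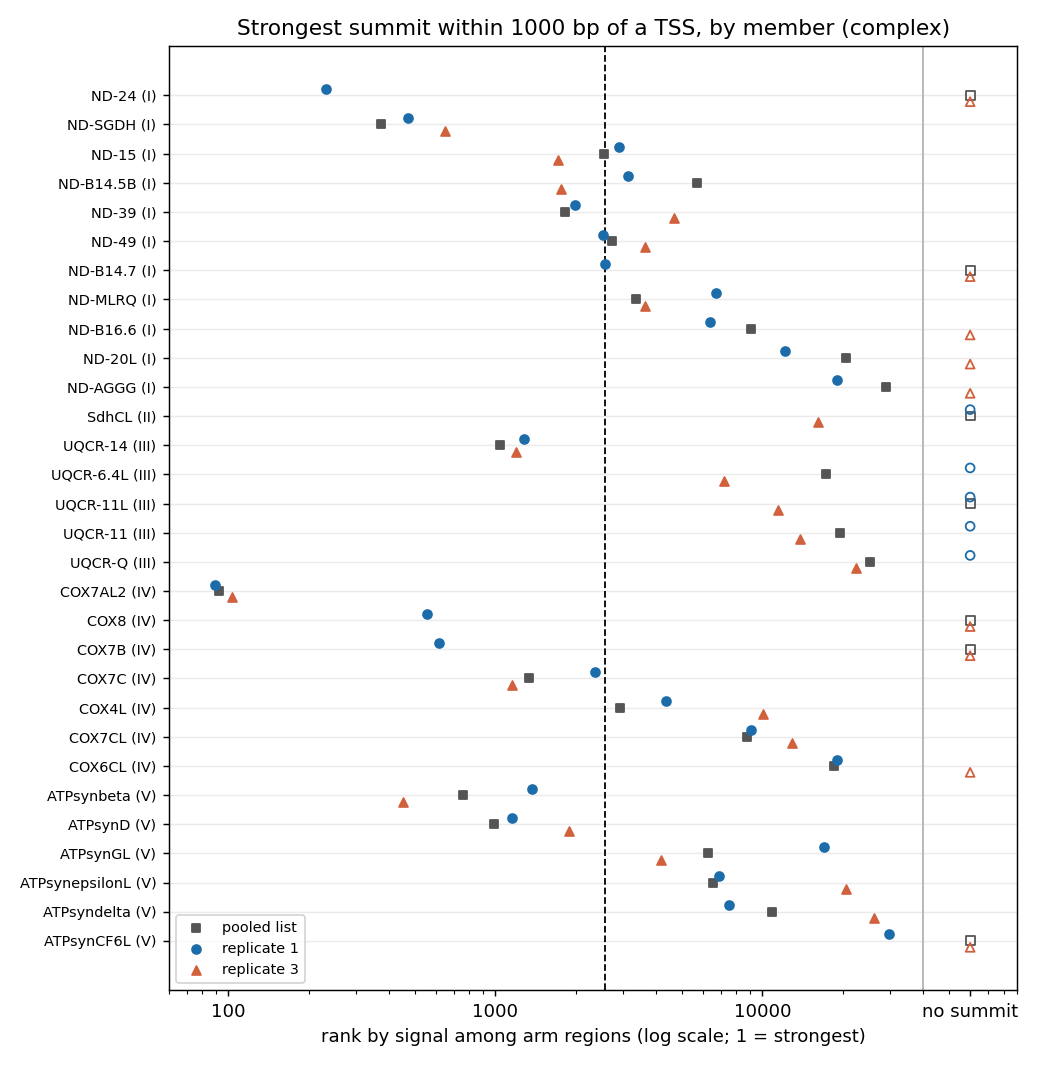
Rank by signal (log scale, 1 is the strongest) of the strongest summit within 1000 bp of a TSS for the 30 members with a summit in at least 1 list, grouped by complex. Squares are the pooled list, circles replicate 1 and triangles replicate 3, open symbols at the right stand for no summit, and the dashed line is rank 2567. COX7AL2 lies near rank 100 in all 3 lists, while ND-24, COX8 and COX7B have a summit in replicate 1 alone.

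Complex I takes electrons from NADH and holds the largest share of the set. IDR summits lay near 3 of its 40 members (7.5%, interval 1.57 to 20.4%), all accessory subunits: ND-SGDH, ND-39 and ND-15. ND-SGDH had the strongest peak, at chr3L:12138533-12138936 with its summit at 12138735, 151 bp upstream of the gene, at rank 374 with a signal of 164. In replicate 1 an overlapping region had rank 470 and a signal of 99.9. No region of the replicate 3 list overlapped the peak. Replicate 3 instead had a summit of rank 651 and signal 53.7 at 12139357, 773 bp upstream, in an intron of the neighbouring gene RhoGAP68F. A replicate 1 region of rank 1380 overlapped that one, and no pooled region did. The TSS nearest to the IDR summit is that of RhoGAP68F, 133 bp away. The 2 replicates therefore placed their strongest summits near this gene at different positions.

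At ND-39 the IDR summit lay 87 bp into the gene, in its 5′ UTR, which itself lies inside an intron of the zinc transporter gene ZnT77C. The peak was chr3L:20491967-20492370, with rank 1824 and a signal of 75.0. The same position had rank 1990 and a signal of 48.9 in replicate 1, and rank 4681 and 26.8 in replicate 3. It was thus among the top regions of replicate 1 and not of replicate 3. ND-15 stood the other way round. Its peak at chr2L:115063-115466, 539 bp into the gene in an intron, was at rank 2549 with a signal of 65.3, close to the lowest signal of an IDR arm peak, 65.2. Overlapping regions had rank 7028 and a signal of 29.3 in replicate 1, and rank 1722 and 37.0 in replicate 3. ND-15 is also annotated over 41305 bp, with 4 IDR summits in its body, where the median length of a member is 1097 bp. Just outside the IDR list was ND-49, a core subunit of complex I, at pooled rank 2735 with a signal of 63.5. Its summit was among the top regions of replicate 1, at rank 2530, and had rank 3631 in replicate 3. The nearest TSS was that of Ephrin, the ligand of the Eph receptor.

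ND-24, another core subunit that carries an iron-sulfur cluster, had the second highest rank of any member in replicate 1. Its summit at chrX:17632158, 69 bp into the gene in the 5′ UTR, had rank 232 and a signal of 136. No region of the pooled or the replicate 3 list overlapped it. ND-B14.5B, an accessory subunit, was among the top regions of replicate 3 with a summit of rank 1770 and signal 36.5, 884 bp downstream of its TSS, between genes and 51 bp from a TSS of toc, which lies nearer. Regions that overlapped this one had rank 5296 in replicate 1 and 3324 in the pooled list. The strongest summit within 1000 bp of ND-B14.5B in those 2 lists lay at another site, upstream of the gene. It had rank 3149 in replicate 1 and 5678 in the pooled list, and the overlapping replicate 3 region had rank 29040. No summit of any list lay near 29 of the 40 complex I members, where 60.8% of all genes had none. The core subunits ND-20, ND-23, ND-30, ND-51 and ND-75 were among the 29.

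Complex II oxidises succinate and is at once an enzyme of the citric acid cycle. It had no IDR summit near any of its 8 members, a count that with so few genes allows a share of up to 36.9%. SdhA, the flavoprotein, SdhB, the iron-sulfur subunit, and the membrane anchors SdhC and SdhD had no summit in any list. The paralog SdhCL had a single one, in replicate 3, at rank 16181 with a signal of 18.1.

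Complex III passes electrons from ubiquinol to cytochrome c. UQCR-14, one of its small subunits, was the 1 of 9 members with an IDR summit (11.1%, interval 0.281 to 48.2%). The peak at chrX:16286062-16286465 had its summit 24 bp upstream of the gene, within the 3′ UTR of CG32576, with rank 1038 and a signal of 98.9. Replicate 1 gave rank 1278 and a signal of 59.6, and replicate 3 rank 1194 and 42.2. The summits of the replicates lay 58 and 20 bp upstream, and no other protein-coding TSS lay within 1000 bp of it. The core proteins UQCR-C1 and UQCR-C2 had no summit in any list. UQCR-6.4L and UQCR-11 had one only in the pooled list, at ranks 17362 and 19571, and in replicate 3, at ranks 7194 and 13779.

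Complex IV, cytochrome c oxidase, reduces oxygen. COX7AL2 and COX7C were its 2 of 16 members with an IDR summit (12.5%, interval 1.55 to 38.3%). COX7AL2 is a like-named paralog of COX7A, a small nuclear-encoded subunit. Its peak at chr2L:2197091-2197296 had its summit 718 bp into the gene, in an intron, with a signal of 289. It had rank 89 and a signal of 185 in replicate 1, and rank 103 and 117 in replicate 3, so it was high in both. A second IDR summit in the 1000 bp window, 825 bp upstream, had rank 980 and a signal of 102. Its ranks were 1584 and 699 in replicates 1 and 3. Further upstream, outside the window, lay an IDR summit of rank 323, with ranks of 316 and 485 in replicates 1 and 3. No other protein-coding TSS lay within 1000 bp of the first summit. COX7A itself and the other paralog, COX7AL, had no summit in any list.

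COX7C had its summit 339 bp into the gene, in an intron, at chr2R:10048490-10048893, with rank 1341 and a signal of 87.0. Replicate 1 gave rank 2365 and a signal of 45.0, and replicate 3 rank 1152 and 42.7. A TSS of oys, which encodes a lysophospholipid acyltransferase, lay nearer, at 73 bp. COX8 and COX7B, small subunits like COX7C, had summits 131 and 42 bp upstream in replicate 1, at ranks 555 and 616 with signals of 92.0 and 87.7. Neither had an overlapping region in the pooled list or in replicate 3. COX4L, the paralog of COX4, was the nearest of this complex to the IDR list, with a pooled rank of 2925 and a signal of 61.8, 221 bp upstream. COX4, COX5A, COX5B and COX6B had no summit in any list.

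Complex V is ATP synthase. ATPsynbeta, its catalytic subunit, and ATPsynD, a subunit of the peripheral stalk, made 2 of 15 members (13.3%, interval 1.66 to 40.5%). The ATPsynbeta peak at chr4:1031677-1032080 had its summit 15 bp from a TSS, in the 5′ UTR, with rank 757 and a signal of 116. It had rank 451 and a signal of 63.5 in replicate 3, at the same base, and rank 1818 and 50.7 in replicate 1. A second IDR summit, at 1031077 in an intron of CG11076, had rank 1577 and a signal of 80.2. It lay 407 bp upstream of a different TSS of ATPsynbeta. That second summit had rank 1374 in replicate 1, above the first one there, and rank 11548 in replicate 3. The order of the pair thus differed between the replicates. At the second site the replicate 1 summit lay 122 bp from a TSS of CG11076, nearer than that of ATPsynbeta, 387 bp away.

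The ATPsynD peak at chr3R:19094009-19094412 had its summit 789 bp upstream, with rank 989 and a signal of 102. Replicate 1 gave rank 1153 and a signal of 63.0, and replicate 3 rank 1895 and 35.7. The summit lay 59 bp from a TSS of cdi, a protein kinase gene, in its 5′ UTR, and 694 bp from mRpL55, a mitochondrial ribosomal protein gene. ATPsynGL, the paralog of ATPsynG, came next in the complex with a pooled rank of 6284. Of the 15 members 9 had no summit in any list, where 60.8% of all genes had none. ATPsyngamma, a subunit of the central stalk, was among the 9.

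**Figure D2:**
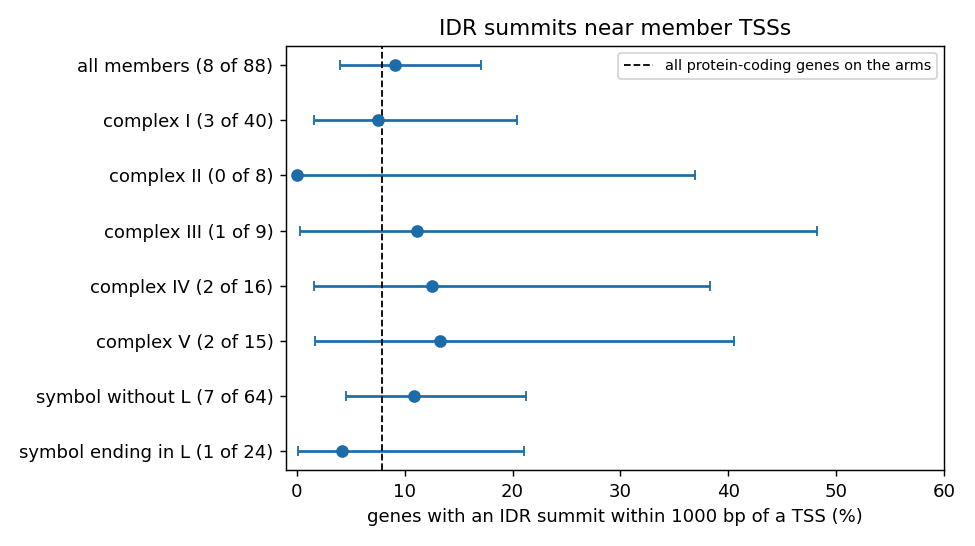
Percent of genes with an IDR summit within 1000 bp of a TSS for the whole set, for each complex and for members with and without L at the end of the symbol, with 95% Clopper-Pearson intervals as bars and the share of all protein-coding genes, 7.91%, as the dashed line. Every interval spans the dashed line.

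Of the 8 members with an IDR summit, 5 had a region that overlapped it among the top regions of both replicates: COX7AL2, ATPsynbeta, ATPsynD, UQCR-14 and COX7C. The summit lay within 500 bp of the member's TSS in 5. Over all genes, 883 of the 1103 with an IDR summit within 1000 bp had one within 500 bp. The member's TSS was the nearest in 5, while ND-SGDH, ATPsynD and COX7C had that of another gene nearer, so the summits of these 3 cannot be assigned to the member by position. Over all genes 7.91% had an IDR summit near a TSS, and 6.63% did when it counted only for the gene with the nearest TSS. Another protein-coding TSS lay within 1000 bp of the summit in 5 of the 8. This count, and that of overlap with top regions of both replicates, were not made over all genes. Close neighbours were common in the set as a whole. Another protein-coding TSS lay within 1000 bp in 51 members (58.0%), against 5985 of all genes (42.9%). It was on the opposite strand in 42 of the 51 members and in 4811 of the 5985 genes.

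The 3 members with a top region summit in replicate 1 and no summit near them in replicate 3 or the pooled list, ND-24, COX8 and COX7B, were 27.3% of the 11 with a top region summit there (interval 6.02 to 61%). Over all genes this held for 242 of 1310, or 18.5%, so the pattern was common to the replicate 1 list. ND-B14.7, with a replicate 1 summit of rank 2569 and none in the other lists, fell just outside the top regions. The reverse, a top region summit in replicate 3 with none in replicate 1 or the pooled list, was found for 0 of 8 members and for 3.1% of 1098 genes.

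**Figure D3:**
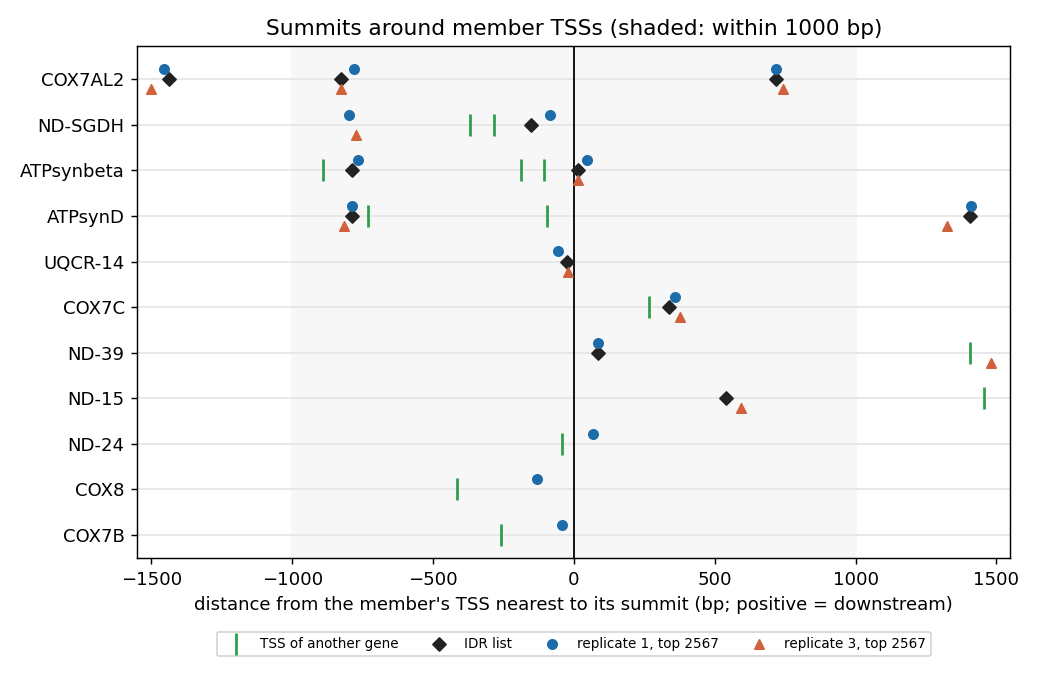
Position of IDR summits (diamonds) and of top region summits in replicate 1 (circles) and replicate 3 (triangles) around the TSS of the 8 members with an IDR summit and of ND-24, COX8 and COX7B, in bp with positive values downstream. Green ticks are TSSs of other protein-coding genes and the grey band is the 1000 bp window. The last 3 rows hold replicate 1 summits alone, and at ND-SGDH the triangle stands apart from the diamond.

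The distance from a member's TSS to the nearest IDR summit had a median of 32400 bp and quartiles of 7760 and 84800 bp. Over all genes the median was 28400 bp and the quartiles were 10600 and 65200 bp. Within 5000 bp there were 18 members (20.5%) against 15.5% of all genes, and within 500 bp 5 members (5.68%) against 6.33%. Members were shorter genes, with a median length of 1097 bp against 2166 bp. An IDR summit lay inside the body of 5 members (5.68%) against 6.33% of all genes.

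The set holds 18 groups of a member with its paralogs, 38 genes in all. IDR summits were found in 4 groups, those of COX7A, COX7C, UQCR-14 and ATPsynbeta, and in none of the 18 did more than 1 gene have one. With 7.91% of all genes having a summit and so few genes in a group, nothing about paralogs is read from this. In the first group it was the paralog, COX7AL2, and in the other 3 the gene without L. ATPsynbetaL and UQCR-14L had no summit in any list, and COX7CL had one at pooled rank 8790. Taken by name alone, 7 of 64 members without L (10.9%, interval 4.51 to 21.2%) and 1 of 24 with L (4.17%, interval 0.105 to 21.1%) had an IDR summit, and these intervals overlap.

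Promoters, read from 250 bp before to 50 bp after each gene's start, were searched on both strands for 10 motifs. Motif 1, a core promoter element of broadly expressed fly genes, stood furthest from all genes in percentage points, with a match in 15 members (17.0%) against 6.05% of all promoters. It matched in 14 of the 64 members without L and in 1 of the 24 with L, and by complex in 7 members of complex I, 5 of IV, 2 of V and 1 of III. DRE, the site of the replication-related factor DREF, matched in 9 members (10.2%) against 9.36%, all 9 of them without L. The TATA box matched in 49 members (55.7%) against 45.8%, and GAGAG in 20 (22.7%) against 29.7%, 10 of them with L. The E-box CACGTG and the sequence CACGCG each matched in 4 members (4.55%), against 4.2 and 6.12%, and AGGTCA, the core of nuclear receptor sites, in 5 (5.68%) against 5.88%. The nuclear respiratory gene element, the NRF-1/ewg motif and the EcR-USP palindrome matched in no member, and in 0.158%, 0.724% and none of all promoters. Within 250 bp on each side of every TSS, the nuclear respiratory gene element matched in 2 members (2.27%), 1 of them with an IDR summit, against 0.308% of all genes. The palindrome contains AGGTCA, and no other motif searched lies wholly inside another.

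DRE or Motif 1 matched in 23 members (26.1%, against 14.6% of all promoters), and 3 of the 23 (13.0%) had an IDR summit: UQCR-14 and ND-15 with DRE and ATPsynD with Motif 1. Over all genes with either element it was 223 of 2041, or 10.9%, so the members' share was close to that of all genes. At ATPsynD and ND-15 the summit lay outside the promoter window, and at ATPsynD it was nearer to cdi. Only at UQCR-14, of these 3, was the element also found within 100 bp of the summit.

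**Figure D4:**
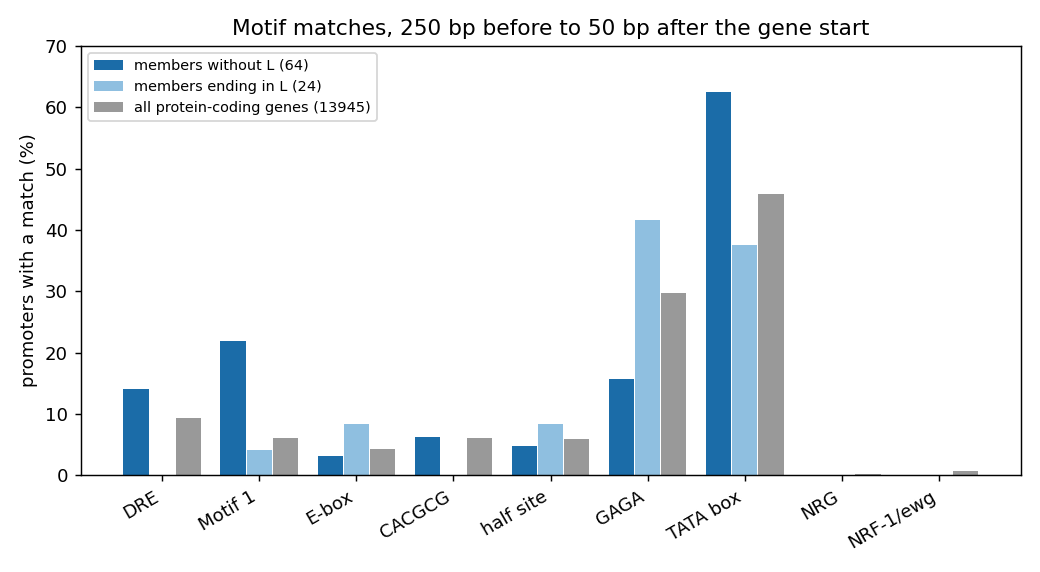
Percent of promoters with at least 1 match to each motif, for the 64 members without L, the 24 with L and all 13945 protein-coding genes. Motif 1 and the TATA box stand higher in members without L than in all genes, and GAGAG higher in members with L.

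Genes of the respiratory chain whose names have another form, and other mitochondrial genes, were counted from 4 lists. Of 12 other subunits, carriers and assembly factors 2 had an IDR summit (16.7%, interval 2.09 to 48.4%), and both encode cytochrome c, the electron carrier between complexes III and IV. Cyt-c-p had a summit of rank 137 and signal 249, 961 bp into the gene, with ranks of 149 and 163 in replicates 1 and 3. Cyt-c-d, the adjacent gene with a role in sperm, had one of rank 317 and signal 177, 352 bp into the gene, with ranks of 297 and 724. These were stronger than all summits near members except that of COX7AL2. The remaining 10, among them Cyt-c1, RFeSP, levy and blw, had none, though blw, the alpha subunit of ATP synthase, had a replicate 1 summit of rank 778 with none in the other lists.

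Of 15 genes of the citric acid cycle and pyruvate dehydrogenase 2 had an IDR summit (13.3%, interval 1.66 to 40.5%): ScsbetaA, a subunit of succinyl-CoA synthetase, at rank 1735, and kdn, citrate synthase, at rank 2323. Of 15 regulators of mitochondrial biogenesis it was mtSSB alone (6.67%, interval 0.169 to 31.9%), which encodes the single-stranded DNA-binding protein of mitochondria. Its summit, 305 bp upstream, had rank 176 and a signal of 224, with ranks of 289 and 115 in replicates 1 and 3. None of the 9 carrier and import genes found in the annotation had one (upper limit 33.6%). All 4 intervals hold the background of 7.91%.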

How the data were processed

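ChIP-seq peak lists of 1 group with 2 biological replicates (numbers 1 and 3) were analysed. The deposited text records state that all 3 input lists (1 per replicate, 1 pooled) mix peaks with background regions, that 1 control alignment served for each, and that IDR peaks were derived from them. Aligner and peak caller: not given in the sources used here. Each region's signal is the authors' own value, on an unstated scale. The deposited −log10 q value served only for an alternative ranking. The summit position is the authors' offset (another column of the deposited lists) from the start of the region. Lists on dm3 were not used. Depth is unknown, so the 95% Clopper-Pearson intervals cover counting error over genes only.

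Analyses used matplotlib 3.10.9, scipy 1.17.1, pandas 2.3.3 and numpy 2.4.6 under Python 3.11.15, with TSSs from Ensembl release 115 of BDGP6.54 and sequence from the RefSeq copy of that release, on arms 2L, 2R, 3L, 3R, 4 and X. Coordinates are 1-based on dm6. Summits were assigned to every gene with a TSS at 1000 bp or less, and the same script gave the share over all 13945 genes. No significance test was made, since there is 1 group. The counting scripts were checked on simulated lists.

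Members and lists were chosen with earlier results of these data known. Named were members with an IDR summit, the 3 strongest of each complex, members among the top regions of 1 replicate without an IDR summit, genes whose TSS was nearer, and listed genes with an IDR summit. Other names were chosen after their values were seen. Tim44 was not found under that symbol in the annotation used. Symbols ending in L, or L and a digit, counted as paralogs, except ND-MNLL.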

Additional observations from a re-analysis of the deposited data

Results flagged for a closer look

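The mitochondrial genome also encodes subunits of complexes I, III, IV and V, and lies outside the arms used for all counts in the report. The IDR list held 24 peaks on it. Summits fell in 9 of its 13 protein-coding genes, 18 summits in all. Of the protein-coding genes on the arms, 6.33% had an IDR summit in the body. The highest signals were 3140 in mt:Cyt-b, 2920 in mt:CoIII and 2440 in mt:CoII, where the strongest IDR peak on the arms had 1110. The number of copies of the mitochondrial genome was not taken into account. Neither the counts nor the signals can therefore be compared with those of the arms as binding. The highest in these genes was 2080 in replicate 1 and 1160 in replicate 3.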

How the results depend on the processing

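Of 21 alternatives 13 left a count within 1.5 times the reported one. Of the other 8, 7 moved a count by more, and 1 moved a median rank by more than the SD between the replicates' medians, 895.9. The 8 members with an IDR summit became 5 with a window of 500 bp (6.33% of all genes), 5 when a summit counted only for the gene with the nearest TSS (6.63%) and 4 with the strongest 1000 arm peaks (4.02%). Each of these 3 settings accepts fewer summits by construction. Leaving out 1 replicate, so that the top regions of the other stood in for the IDR list, gave 8 to 11. Counting summits in the gene body as well as in the 1000 bp window, an alternative chosen after seeing the data, gave 8 (10.2% of all genes). With the strongest 1000 arm regions the count fell from 11 to 5 in replicate 1 (4.94%) and from 8 to 3 in replicate 3 (3.99%), and with 500 bp replicate 3 gave 3 (6.17%). Ranked by −log10 q, the median pooled rank of members was 7749 and that of all genes 8320. The cause was not tested. Searched 250 bp on each side of every TSS, GAGAG matched in 36 members (49.6% of all genes), and the window is wider by construction. No paired analysis was possible because the study has 1 group. Depth is unknown, so a missing summit says only that none was listed.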

Other observations

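Among the listed mitochondrial genes other than members, some stood high in the list of 1 replicate alone. park, a ubiquitin ligase of mitochondrial quality control, had a summit of rank 216 and signal 85.7 in replicate 3 and none near it in replicate 1 or the pooled list. Scsalpha1, a subunit of succinyl-CoA synthetase, had one of rank 786 in replicate 1, and Ogdh, of the oxoglutarate dehydrogenase complex, one of rank 1503. mtTFB1, a mitochondrial rRNA methyltransferase, had rank 913 in replicate 1 and 12761 in replicate 3. None of these 4 had an IDR summit, and they were chosen after their values were seen. Over all genes with a top region summit in replicate 1, 18.5% had none in replicate 3 or the pooled list. The reverse held for 3.1% of those with a top region summit in replicate 3.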
